A study of Mus musculus with 18 samples.

Results

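Colon crypts of COLONIZED-Ern2-/- mice were compared with those of GF-Ern2-/- mice, to ask what a gut microbiota changes in the epithelium when both groups carry the Ern2-/- label. These 6 libraries, 3 in each group, were chosen by their labels from the 18 of the series. Mice of both groups were of the C57BL/6 strain and labelled Ern2-/-, a germline loss-of-function genotype for ERN2 (IRE1β), so the comparison itself holds no WT control. GF mice were germ free. COLONIZED mice had been raised germ free, received the cecal contents of conventional WT donors by a single gavage and were examined 14 days later. After the gavage they were kept in sterile cages outside the isolator, whereas GF mice were maintained in isolators. Effects of the gavage and of the change of housing cannot be told apart from those of colonization. The labels gave no ages. RNA was read from intact crypts freed from colon tissue with EDTA, and counts of reads per gene were obtained by RNA-Seq.

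ERN2 is a stress sensor of the endoplasmic reticulum (ER) found in mucosal epithelium, and its relative ERN1 (IRE1α) is made by most cells. Both cut the mRNA of Xbp1, whose spliced product drives chaperone and secretory genes. Goblet cells need this machinery because they fold and secrete large amounts of the mucin MUC2. In the colon crypt, stem and dividing cells lie at the base, and the daughters mature into absorptive colonocytes or into goblet, enteroendocrine and tuft cells as they move to the surface. Germ-free mice are known for slow epithelial turnover and for low expression of several microbe-induced defence genes.

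Library totals ran from 13783712 to 20384814 counts. Values below are normalized read counts, that is, counts divided by the size factor of each library, and they are given for replicates 1, 2 and 3 of each group in that order. A gene was called when the Wald test of DESeq2 gave a Benjamini-Hochberg adjusted p under 0.01. Ern2 itself was counted in every library, at 3201, 436 and 3726 in GF-Ern2-/- and 2871, 1477 and 2104 in COLONIZED-Ern2-/-. The groups overlapped, and Ern2 was not called (log2 fold change −0.19, SE 0.84, adjusted p 0.925). In WT libraries, scaled in the fit of both genotypes, it was at 3152, 2343 and 3010 in GF and 3338, 2973 and 2884 in COLONIZED mice. The Ern2-/- libraries at 3201, 2871 and 3726 were within or above the WT range, and those at 436, 1477 and 2104 were below it. The counts therefore do not bear out the label in every library, and they cannot show whether part of the transcript is missing. Ern2-/- is used here as a label, also where it is set beside WT. Epcam of epithelium was at 27424 to 39326 in all 6 libraries, and Ptprc of immune cells ran from 63.1 to 167. Col1a1 of mesenchyme was at most 6.98, but Pdgfrb of the same list was at 596, 346 and 395 in GF-Ern2-/- and at 256, 206 and 193 in COLONIZED-Ern2-/-. None of the 15 epithelial markers tested or 11 immune markers tested was called, although 2 epithelial markers were called higher without GF-Ern2-/- replicate 2. Of the mesenchymal markers 1 of 10 tested was called (Pdgfrb, lower), and of the endothelial markers 1 of 5 (Pecam1, lower). Pecam1 was at 42.3, 65.7 and 33.8 in GF-Ern2-/- and at 12.7, 10.0 and 6.72 in COLONIZED-Ern2-/-.

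GF-Ern2-/- replicates 1 and 2 stood apart. GF-Ern2-/- replicate 2 held the lowest Ern2 and Muc2 counts and the highest sum of small intestinal markers, 36719 normalized counts against 8409 to 11687 in the other 5 libraries. Its summed brush border genes came to 111605, against 49717 and 54452 in the other GF libraries. It was also the highest of the 6 libraries for summed colonic surface genes, at 1012670 against 338692 to 424744. The same held for summed epithelial markers, at 767900 against 281542 to 411434. GF-Ern2-/- replicate 1 held 65218 summed counts of interferon-stimulated genes, against 20320 to 26438 in the others. In both groups replicates 1 and 2 had more than 100 counts of Y-linked genes and replicate 3 had 1 or 0, so that this pattern was balanced.

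Colonization of mice labelled Ern2-/- was followed by called changes in 1000 of 13943 genes tested (7.17%). Of these, 502 were higher (3.60% of genes tested) and 498 were lower (3.57%), and 654 differed at least 2-fold. The counts of each gene list below are to be read against these shares. The median log2 fold change over all genes tested was −0.02. By leaving out 1 library at a time, 379 of the calls were made in all 6 fits, 185 of them higher and 194 lower. The quasi-likelihood test of edgeR called 27 genes (0.216%), 10 higher and 17 lower, and each of these was also called by DESeq2. At an edgeR adjusted p under 0.05 the count was 821, and 790 of the DESeq2 calls were under it. Without overlap between the groups were 4622 genes (33.1% of those tested), against which the counts of separated groups below are to be read.

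**Figure D1:**
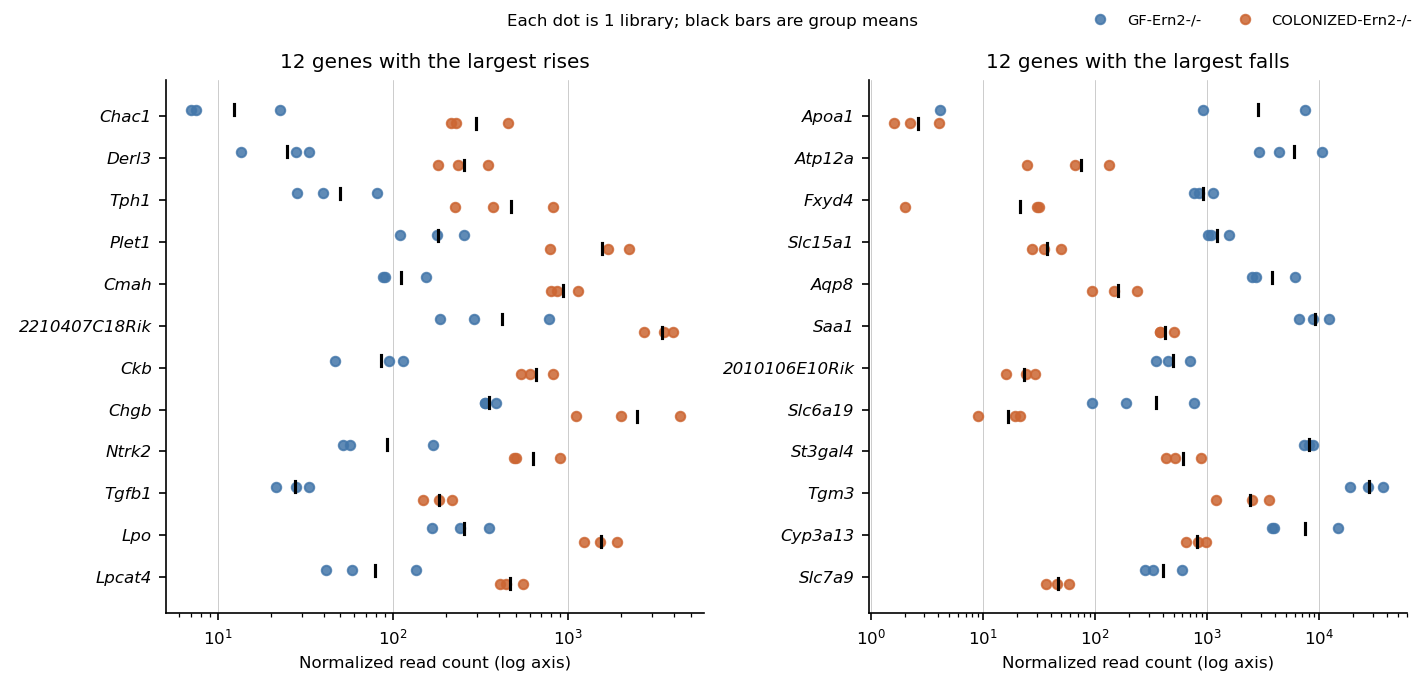
Normalized read counts (log axis) of the 12 genes with the largest rises (left) and the 12 with the largest falls (right). The ranking took called genes with a mean of at least 100, no group overlap and a call in every leave-one-out fit. Each dot is 1 library, blue for GF-Ern2-/- and orange for COLONIZED-Ern2-/-, and black bars are group means. Chac1 lies between 6.98 and 22.7 in GF and between 214 and 449 in COLONIZED libraries, and in Apoa1 a GF library at 4.15 sits next to the COLONIZED libraries.

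The largest changes are given for called genes with a mean of at least 100 normalized counts, no overlap between the groups and a call in all 6 leave-one-out fits, which 151 genes met for a rise and 176 for a fall. Chac1 led the rises (chr2:119351242-119354326, RefSeq on GRCm38.p6). It encodes an enzyme that degrades glutathione and is a target of the ATF4 stress pathway. Its counts were 7.47, 22.7 and 6.98 in GF-Ern2-/- and 449, 229 and 214 in COLONIZED-Ern2-/-. All COLONIZED libraries lay far above all GF libraries, 24.4-fold on average (log2 fold change 4.61, SE 0.49, adjusted p 8.67e-18). Leaving out 1 library gave log2 changes of 4.18 to 5.37. Derl3 (chr10:75893398-75895941), part of the machinery that removes misfolded proteins from the ER, came next. Its counts were 33.2, 13.6 and 27.9 in GF and 346, 235 and 180 in COLONIZED libraries, a change of 3.34 (SE 0.40, adjusted p 4.37e-14).

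A pair of the largest rises belonged to enteroendocrine cells. Tph1, the enzyme that limits serotonin synthesis, rose from 28.2, 39.7 and 80.3 to 370, 811 and 225, a change of 3.25 (SE 0.50, adjusted p 1.85e-08). Chgb, a protein of hormone granules, was steady in GF mice at 334, 384 and 335 and spread widely in COLONIZED mice at 1993, 4313 and 1108. Replicate 2 was the highest COLONIZED library for both genes and replicate 3 the lowest. The remaining genes with the largest rises were Plet1, a surface protein of progenitor cells (3.11), Cmah, which makes the sialic acid Neu5Gc (3.08), the uncharacterized 2210407C18Rik (3.03) and Ckb, the brain form of creatine kinase (2.94). They also comprised Ntrk2, a neurotrophin receptor (2.78), Tgfb1, a cytokine that dampens inflammation (2.72), Lpo, a peroxidase (2.62), and Lpcat4, an enzyme of phospholipid remodelling (2.58). Cmah, at 87.1, 89.6 and 155 against 800, 1137 and 858, was called by edgeR as well (adjusted p 0.00590).

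Apoa1, a lipoprotein given below, had the largest fitted fall. Atp12a, the potassium pump of the colonic surface that exchanges potassium for protons, went from 10451, 2912 and 4385 in GF to 133, 66.3 and 24.6 in COLONIZED libraries, or −6.31 on the log2 scale (SE 0.83, adjusted p 1.02e-11). Fxyd4, which regulates the sodium pump, went from 1129, 840 and 766 to 30.3, 2.01 and 31.4 (−5.42). Slc15a1 (PEPT1, chr14:121459621-121505254), which takes up dipeptides and tripeptides, was 32.5-fold lower. Its counts of 1556, 1012 and 1072 in GF and 49.4, 27.1 and 34.7 in COLONIZED libraries did not overlap, and its adjusted p of 1.25e-57 by DESeq2 and 0.00269 by edgeR was the lowest of all genes in the edgeR test. The water channel Aqp8 went from 2740, 5992 and 2495 to 93.2, 147 and 235 (−4.57, SE 0.41, adjusted p 8.91e-26).

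Saa1, an acute phase protein that binds retinol, was among the largest falls too, at 8752, 6572 and 12120 in GF and 380, 505 and 380 in COLONIZED libraries (−4.44, SE 0.27, adjusted p 1.25e-57). Its near-identical neighbour Saa2 went from 65.6, 60.1 and 86.1 to 3.98, 3.01 and 3.36 (−4.34). Reads could be split between these 2 genes, so each value is uncertain on its own. St3gal4, which caps glycans with sialic acid, was even within GF, at 8821, 7259 and 8070, and spread more in COLONIZED libraries, at 880, 426 and 515 (−3.73, SE 0.28, adjusted p 1.91e-35). The crosslinking enzyme Tgm3 (−3.51), the cytochrome Cyp3a13 (−3.20), the amino acid carriers Slc6a19 (−4.39) and Slc7a9 (−3.11) and the uncharacterized 2010106E10Rik (−4.44) fell as well. Apoa1, the main protein of high-density lipoprotein, had a fitted change of −10.07 (SE 1.92, adjusted p 9.84e-06), the size of which is uncertain at COLONIZED counts this low. It had 4.15, 7491 and 913 normalized counts in GF and raw counts of 2, 4 and 2 in COLONIZED libraries, so that a GF library lay at the level of COLONIZED mice.

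**Figure D2:**
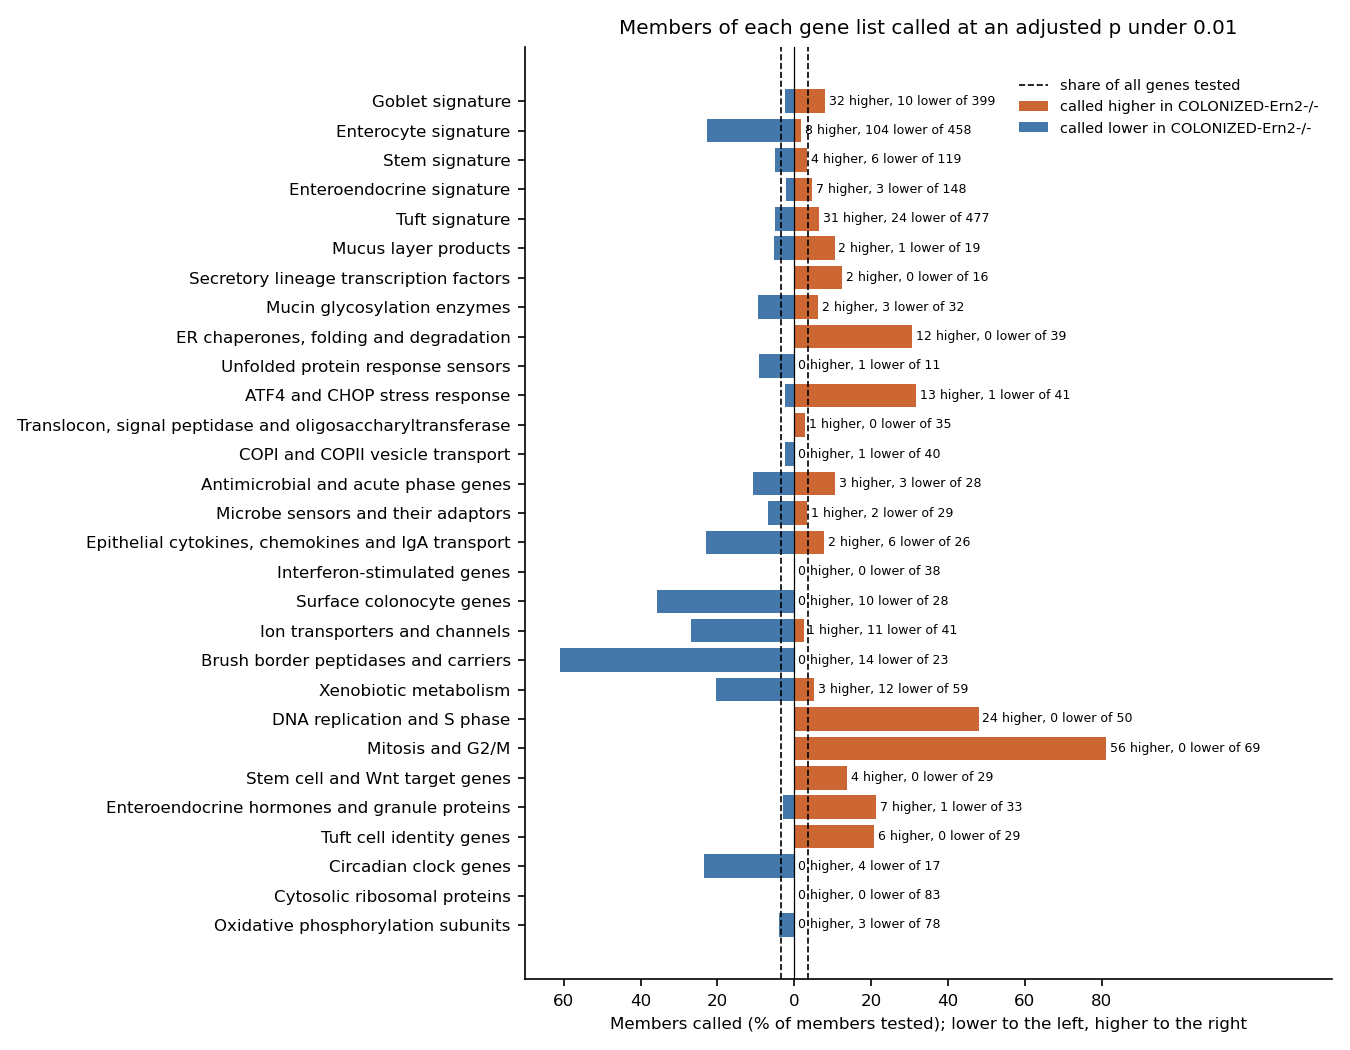
Members of each gene list called higher (orange, to the right) and lower (blue, to the left) in COLONIZED-Ern2-/-, as a percentage of the members tested; dashed lines give the shares over all genes tested. Mitosis genes reach furthest to the right with 56 of 69 called higher and brush border genes furthest to the left with 14 of 23 called lower.

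Of the ER chaperones and folding factors, those that were called all rose. Of 39 members tested, 12 were called higher and none lower. The median of the list was 0.55, against −0.02 over all genes, and without GF-Ern2-/- replicate 2 it was 0.71 with 19 called higher. The count was 8 without replicate 1 and 8 without replicate 2 of COLONIZED-Ern2-/-, and edgeR called 1. Hspa5 (BiP, chr2:34772090-34776529), the main chaperone of the ER lumen, was at 8256, 12257 and 7081 in GF and 32617, 29589 and 21919 in COLONIZED libraries, a change of 1.61 (SE 0.27, adjusted p 1.85e-07). Every COLONIZED library exceeded every GF library. Creld2, a disulfide isomerase of the ER, was flat in GF at 612, 705 and 616 and rose to 2991, 2527 and 1943 (1.95, SE 0.22, adjusted p 3.38e-16). The nucleotide exchange factor Hyou1 (1.44), the stress-secreted factor Manf (1.34) and Sdf2l1, a partner of Hspa5 (1.43), rose as well, as did the ER chaperone Hsp90b1 (0.89). The oxidase Ero1b, listed under its older symbol Ero1lb, rose by 1.20.

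Among 11 sensors and their partners tested, none was called higher in the fit of 6 libraries. Xbp1 was at 2993, 3067 and 2745 in GF and 5152, 3916 and 3615 in COLONIZED libraries, so that the groups did not overlap, but its change of 0.53 (SE 0.20) had an adjusted p of 0.0596. In the fit of 12 libraries that included WT mice Xbp1 was called in Ern2-/- (adjusted p 0.00374). Atf6b, a relative of Atf6, was not called (0.29, adjusted p 0.260). Counts per gene do not separate spliced from unspliced Xbp1. Ern1 (−0.23, adjusted p 0.659), Atf6, the sensor that is cut in the Golgi (0.09, adjusted p 0.840), and Eif2ak3 (PERK), which phosphorylates the translation factor eIF2 (0.42, adjusted p 0.356), were not called. Eif2ak1, a kinase of the same family that responds to heme and mitochondrial stress, was called lower, from 2055, 2362 and 1965 to 1382, 1363 and 1371 (−0.63, adjusted p 0.00193), and it was called in 2 of the 6 fits that left out a library. Among secretory steps near the ER, 1 of 35 tested genes of the translocon, signal peptidase and oligosaccharyltransferase was higher, with a median of 0.22, and 1 of 40 tested COPI and COPII vesicle genes was lower, with a median of 0.15, beside 3.60% higher and 3.57% lower over all genes. The higher call of the former list was absent without any 1 library other than GF-Ern2-/- replicate 2, and the lower call of the latter without GF-Ern2-/- replicate 1 or COLONIZED-Ern2-/- replicate 2 or 3. Leaving out a GF library called 1 vesicle gene higher.

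Promoters of the ER genes were read because a known letter pattern links many of them. The windows, from RefSeq on GRCm38.p6, run from 250 bases before to 50 after each start listed there, so that 27025 genes had 32851 windows and a gene counted once if any of its windows matched. Of the 39 tested members 35 were matched to a window. The ER stress response element was searched on both strands as CCAAT and CCACG separated by 9 bases of any kind. ATF6 and XBP1 are known to bind such elements together with NF-Y. Its letters occurred in 10 of the 35 ER genes (28.6%), in 0.172% of the 11059 tested genes that had a window and in 0.137% of all genes with one. Among the ER genes, 8 of 10 called members with a window held it (Hspa5, Hsp90b1, Pdia6, Dnajc3, Creld2, Ero1lb, Derl3 and Syvn1), and 2 of 25 members that were not called. The pattern is a description of these windows and no test of binding. Shown are the whole windows of Derl3 and Hspa5 and the element with 20 bases on either side for a further 5 called genes, with the matched letters in capitals. In Derl3 and Creld2 the element lies on the opposite strand and reads as its reverse complement. In Hsp90b1, whose window holds 2 matches, the first is shown.
Derl3, chr10:75893148-75893447, plus strand: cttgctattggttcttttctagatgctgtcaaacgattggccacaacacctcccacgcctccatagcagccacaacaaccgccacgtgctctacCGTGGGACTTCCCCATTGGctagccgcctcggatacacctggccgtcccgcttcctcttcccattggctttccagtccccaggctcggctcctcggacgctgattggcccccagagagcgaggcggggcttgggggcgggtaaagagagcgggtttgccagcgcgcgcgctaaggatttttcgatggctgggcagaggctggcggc
Hspa5, chr2:34771840-34772139, plus strand: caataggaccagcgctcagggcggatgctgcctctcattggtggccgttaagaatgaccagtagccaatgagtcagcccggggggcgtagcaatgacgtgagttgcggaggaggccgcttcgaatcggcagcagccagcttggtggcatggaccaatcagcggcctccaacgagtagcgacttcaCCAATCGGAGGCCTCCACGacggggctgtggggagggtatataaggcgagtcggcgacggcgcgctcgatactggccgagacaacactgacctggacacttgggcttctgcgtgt
Creld2, chr15:88819500-88819558, plus strand: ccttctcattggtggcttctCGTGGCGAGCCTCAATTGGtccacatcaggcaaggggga
Hsp90b1, chr10:86705618-86705676, minus strand: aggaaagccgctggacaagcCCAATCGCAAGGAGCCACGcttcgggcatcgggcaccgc
Dnajc3, chr14:118937807-118937865, plus strand: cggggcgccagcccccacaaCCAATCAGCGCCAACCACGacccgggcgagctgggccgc
Pdia6, chr12:17266471-17266529, plus strand: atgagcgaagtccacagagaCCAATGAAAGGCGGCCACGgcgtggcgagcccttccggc
Syvn1, chr19:6046512-6046570, plus strand: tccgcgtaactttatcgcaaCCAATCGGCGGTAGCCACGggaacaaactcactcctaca
In Derl3 the element lay 156 to 138 bases before the start and in Hspa5 65 to 47 bases before it. Syvn1, a ubiquitin ligase of the ER membrane, rose by 0.96, the isomerase Pdia6 by 1.01 and the cochaperone Dnajc3 by 0.78 with an adjusted p of 0.00998, close to the threshold.

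Genes of the ATF4 and CHOP response, which supplies amino acids and one-carbon units under stress, were called higher in 13 of 41 tested members and lower in 1. Their median was 0.46. The number called higher was 5 without COLONIZED-Ern2-/- replicate 1, and edgeR called 1. Aldh1l2, a mitochondrial enzyme of folate metabolism, was at 11.6, 13.6 and 4.66 in GF and 237, 205 and 122 in COLONIZED libraries (4.23, SE 0.46, adjusted p 2.51e-17). Mthfd2, of the same pathway, rose from 103, 154 and 113 to 458, 411 and 321 (1.69), and the amino acid carrier Slc7a5 rose by 1.64. Trib3, a pseudokinase induced with CHOP, was at 9.96, 31.7 and 8.15 in GF and 155, 46.2 and 70.6 in COLONIZED libraries. Its change of 2.46 had an adjusted p of 0.00195, which became 0.103 when COLONIZED-Ern2-/- replicate 1, its highest library, was left out. The transcription factors of the pathway were not called: Atf4 had a change of 0.33 (adjusted p 0.369) and Ddit3 (CHOP) of 0.37 (adjusted p 0.551), both with overlapping groups. The composite element TGATGCAAT, bound by ATF4 with C/EBP factors, was found on either strand in 3 of 34 matched members of the list, none of them among the 11 called members with a window, and in 0.136% of tested genes. Only these exact letters were searched, and only within the windows. The search therefore cannot show that the called members lack such an element.

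The 5 epithelial signatures used here were taken from earlier single-cell work, which the study cites for the small intestine. In the goblet signature of 399 tested genes, 32 were called higher and 10 lower, beside 3.60% and 3.57% over all genes tested. The median was 0.10. The number higher was 14 without replicate 1 and 16 without replicate 2 of COLONIZED-Ern2-/-, and the number lower was 4 without GF-Ern2-/- replicate 1 and 3 without replicate 2 or 3 of COLONIZED-Ern2-/-. Art2a-ps, listed as a pseudogene of an ADP-ribosyltransferase, had the lowest adjusted p of the signature, at 1.66, 5.67 and 6.98 in GF and 197, 197 and 115 in COLONIZED libraries (5.23, SE 0.54, adjusted p 7.37e-19). The genes called higher included the ER members Creld2, Hyou1, Hspa5 and Manf, which are shared with the list above. Muc2 (chr7:141690340-141754691), the mucin that forms the colonic mucus gel, was at 43510, 11028 and 28803 in GF and 133374, 81533 and 66260 in COLONIZED libraries. The groups did not overlap, and the change was 1.75 (SE 0.44, adjusted p 0.00132). It was called in 4 of the 6 fits that left out a library with an adjusted p of 0.0509 when COLONIZED-Ern2-/- replicate 1 was left out, and it was not called with the Y-linked pattern as a covariate (adjusted p 0.183). Agr2, the isomerase that folds MUC2, went from 18768, 15094 and 11327 to 61508, 34483 and 35546 (1.54, SE 0.29, adjusted p 1.03e-05) and was called in all 6. In the DESeq2 fit of all 18 libraries neither Muc2 (adjusted p 0.0147) nor Agr2 (adjusted p 0.0115) was called.

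Tff3, a trefoil peptide that supports repair, was at 9305, 19418 and 5600 in GF and 5648, 2577 and 4014 in COLONIZED libraries. It was called lower (−1.49, adjusted p 0.00759), although the groups overlapped and the adjusted p rose to 0.117 when COLONIZED-Ern2-/- replicate 2 was left out. Zg16, a lectin that binds bacteria, was not called (−1.28, adjusted p 0.0382), nor was Fcgbp, a structural protein of mucus (−0.50, adjusted p 0.523). The metalloprotease now named Clca1 is listed as Clca3 in these counts and had 53474, 41577 and 16515 against 33601, 14932 and 23863 (−0.62, adjusted p 0.362). In all, 2 of 19 tested mucus products were higher and 1 was lower, with a median of −0.28. Leaving out 1 library gave 1 to 3 higher and 0 to 4 lower, with 4 lower without COLONIZED-Ern2-/- replicate 1, and 3 higher and 0 lower without GF-Ern2-/- replicate 2. The other counts of lower products were 2 without GF-Ern2-/- replicate 3 and 0 without any of the remaining 3 libraries. The antimicrobial Retnlb was at 137, 189 and 132 in GF and 541, 84.3 and 510 in COLONIZED libraries (adjusted p 0.0888), with COLONIZED replicate 2 below every GF library. Spink4 (0.78, adjusted p 0.206) and Ang4, an angiogenin with close paralogs (1.20, adjusted p 0.0184), were not called, although Ang4 was with the Y-linked covariate (adjusted p 0.000221) and with the replicate block (0.000816).

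Transcription factors of the secretory lineage gave 2 calls in 16, both higher. Only 1 was higher without any library other than GF-Ern2-/- replicate 3, and 1 was lower without GF-Ern2-/- replicate 2. Bhlha15 (MIST1), which scales up the secretory apparatus, was at 43.1, 21.5 and 59.4 in GF and 209, 178 and 121 in COLONIZED libraries (2.03, SE 0.41, adjusted p 2.90e-05). Spdef, which drives goblet maturation, went from 602, 467 and 1052 to 1955, 1667 and 1191 (1.18, adjusted p 0.00565), and was called in 1 of the 6 fits that left out a library. Atoh1, which commits cells to the secretory lineage, was at 1302, 932 and 1021 against 1579, 1024 and 964 (0.13, adjusted p 0.814). Neither Gfi1 (0.03, adjusted p 0.968) nor Klf4 (−0.66, adjusted p 0.0135) was called. Of 32 tested enzymes and carriers for mucin glycosylation, 2 were higher and 3 lower, with a median of 0.07. Without GF-Ern2-/- replicate 2 the counts were 6 higher and 5 lower and the median 0.30. Without COLONIZED-Ern2-/- replicate 1 they were 1 higher and 5 lower, and without replicate 2 of that group 1 higher and 3 lower. Galnt12 (0.79) and Galnt3 (0.96), which start O-glycans, rose, while St3gal4, the sulfotransferase Gal3st1 (adjusted p 9.86e-06) and the sulfate carrier Slc26a2 (−1.10) fell. In the DESeq2 fit of all 18 libraries Galnt12, Galnt3 and Slc26a2 were not called (adjusted p 0.0242, 0.0895 and 0.0276). St3gal4 was not called for Ern2-/- mice in the fit of 12 libraries (adjusted p 0.0101). Its change there was −3.72 with an SE of 1.16, against 0.28 in the fit of 6 libraries. The GF-WT libraries of that fit spread widely, at 7238, 22.4 and 6488.

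**Figure D3:**
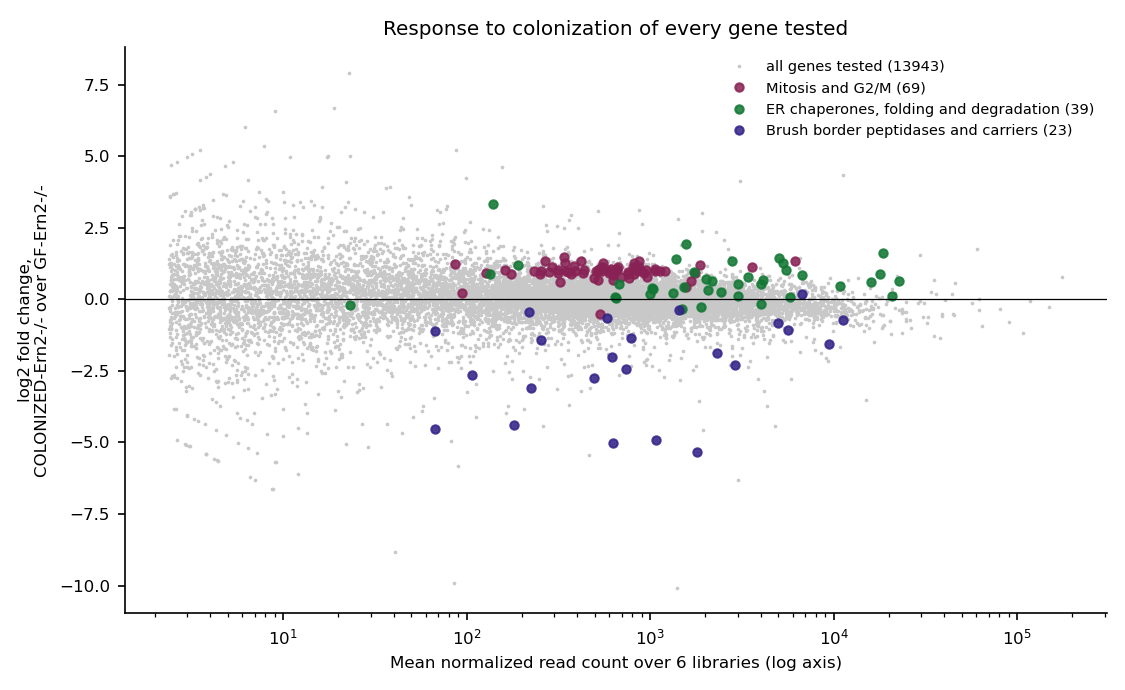
Log2 fold change of COLONIZED-Ern2-/- over GF-Ern2-/- against mean normalized count (log axis) for the 13943 genes tested (grey); 69 mitosis genes (dark red) lie in a narrow band with a median of 0.99, 39 ER genes (green) around 0.55 and 23 brush border genes (dark blue) around −1.86.

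Of 69 mitosis genes tested, 56 were called higher and none lower, 68 had a positive change, and in 68 the groups did not overlap. The median was 0.99, and 0.91 without GF-Ern2-/- replicate 2. Of 50 DNA replication genes tested, 24 were called higher and none lower, with a median of 0.69 and no overlap in 45. The edgeR test at an adjusted p under 0.01 called none of the mitosis genes and 2 of the replication genes. The mitosis calls numbered 33, 31 and 34 without COLONIZED-Ern2-/- replicates 1, 2 and 3, and without GF-Ern2-/- replicate 2 they were 54 higher and 1 lower. Without COLONIZED-Ern2-/- replicate 3 the replication calls numbered 15. As these are bulk crypts, more dividing cells cannot be told apart from more of these transcripts per cell.

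Bub1, a kinase of the spindle checkpoint, was at 186, 166 and 182 in GF and 427, 612 and 451 in COLONIZED libraries (1.48, SE 0.23, adjusted p 3.26e-08). Racgap1, needed for cytokinesis (1.00), the cyclin Ccna2 (1.20) and Birc5 (survivin, 1.04) rose with it. The proliferation marker Mki67 was at 4766, 1759 and 3844 against 8746, 10003 and 7808 (1.36, adjusted p 0.00126) and was called in 3 of the fits that left out a library, while the topoisomerase Top2a rose by 1.12 and the mitotic kinase Cdk1 by 0.93. Mcm3, of the replicative helicase, was close together within each group, at 573, 563 and 532 in GF and 1299, 1256 and 1373 in COLONIZED libraries (1.24, SE 0.16, adjusted p 3.44e-12). Uhrf1, which maintains DNA methylation (1.24), and the licensing factors Cdc6 (1.73) and Cdt1 (0.63) rose, as did the other helicase subunits Mcm2 (0.96), Mcm5 (0.77), Mcm6 (0.81) and Mcm7 (0.71). Cdkn1a (p21), an inhibitor that halts the cycle, fell from 5246, 5796 and 5238 to 1805, 1832 and 1986 (−1.53, SE 0.15, adjusted p 4.94e-21), with an edgeR adjusted p of 0.00590.

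The promoters of these genes share other letters. TTTGAA, the core of the cell cycle genes homology region that DREAM and MuvB complexes bind, occurred on either strand in 40 of 57 matched mitosis genes (70.2%), in 14.6% of tested genes and in 20.2% of all genes with a window. It was found in 35 of the 46 called members with a window and in 5 of the 11 others. For the replication genes TTTGGCGC and TTTCGCGC, which are sites of E2F factors, were searched on both strands. They were found in 12 of 40 matched members (30.0%), and in 1.73% of tested genes. Both share the letters GCGC with their reverse complements, so that matches on opposite strands can overlap. The E2F letters were in 6 of 22 called and 6 of 18 uncalled members with a window. Stretches of 4 replication genes and 2 mitosis genes are shown with up to 20 bases on either side of the first match, and capitals mark matched letters.
Mcm5, chr8:75109336-75109383, plus strand: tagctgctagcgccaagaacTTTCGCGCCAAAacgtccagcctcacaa
Mcm6, chr1:128359788-128359835, minus strand: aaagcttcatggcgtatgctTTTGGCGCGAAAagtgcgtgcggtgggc
Uhrf1, chr17:56304108-56304155, plus strand: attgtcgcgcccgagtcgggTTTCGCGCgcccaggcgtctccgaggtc
Cdt1, chr8:122568027-122568064, plus strand: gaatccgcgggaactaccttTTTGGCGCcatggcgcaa
Cdk1, chr10:69352958-69353003, minus strand: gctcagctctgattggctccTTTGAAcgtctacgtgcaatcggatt
Top2a, chr11:99024343-99024388, minus strand: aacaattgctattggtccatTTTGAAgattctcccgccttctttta
In Mcm5 and Mcm6 a further match on the opposite strand overlaps the first, so the capitals run on. The stretches of Mcm5, Uhrf1 and Top2a come from windows of starts that lie downstream of the first base of the gene.

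Stem cell and Wnt target genes gave 4 calls in 29, all higher, with a median of 0.17, and the count was 2 without COLONIZED-Ern2-/- replicate 2 or without replicate 3. The counts were 5 higher and 1 lower, with a median of 0.03, without GF-Ern2-/- replicate 2. Cd44, an adhesion receptor of the crypt base, was at 447, 553 and 835 in GF and 2109, 4352 and 3137 in COLONIZED libraries (2.39, SE 0.33, adjusted p 7.14e-11). The cyclin Ccnd1 rose from 1024, 919 and 1730 to 4015, 4736 and 3550 (1.74), the Wnt inhibitor Nkd1 by 1.91 and the positional receptor Ephb2 by 0.89. The stem cell marker Lgr5 was at 186, 159 and 326 against 176, 276 and 289 and was not called (0.14, adjusted p 0.851). In the stem signature from single-cell work 4 of 119 tested genes were higher and 6 lower, near the 3.60% and 3.57% over all genes, with a median of 0.17. The number lower was 3, 2 and 3 without GF-Ern2-/- replicate 1 and COLONIZED-Ern2-/- replicates 2 and 3, and the number higher was 8 without GF-Ern2-/- replicate 3. The lower members included Shisa2 (−0.92) and the protease Prss23 (−1.92).

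Of the called hormone, granule and tuft identity genes, all but Ddc were higher in COLONIZED-Ern2-/- mice. Of 33 tested hormone and granule genes, 7 were called higher and 1 lower, 30 had a positive change and the median was 1.22. Chga, a granule protein, was at 207, 308 and 157 in GF and 991, 1844 and 550 in COLONIZED libraries (2.33, SE 0.42, adjusted p 2.31e-06). Tac1, the precursor of substance P, rose from 29.0, 23.8 and 19.8 to 108, 90.4 and 65.0 (1.85). Somatostatin (Sst) rose by 1.46, proglucagon (Gcg) by 1.30 and the lineage factor Insm1 by 1.53, whereas Ddc, the decarboxylase after Tph1 in serotonin synthesis, went from 2415, 3193 and 1960 to 1555, 1153 and 1269 (−0.93, adjusted p 0.00252). The number higher was 11 without GF-Ern2-/- replicate 2. Leaving out GF-Ern2-/- replicate 1 or COLONIZED-Ern2-/- replicate 2 gave 4, and Ddc was not called in either case or without COLONIZED-Ern2-/- replicate 3. The broader enteroendocrine signature had 7 of 148 tested genes higher and 3 lower, beside 3.60% and 3.57% over all genes, with a median of 0.59. Without GF-Ern2-/- replicate 2 the number higher was 11, and without COLONIZED-Ern2-/- replicate 2 or 3 the number lower was 1. In that signature Celf3, an RNA-binding protein, went from 14.9, 10.2 and 14.0 to 78.1, 82.3 and 65.0 (2.52) and the adhesion receptor Gpr116 rose by 3.23, while the somatostatin receptor Sstr1 went from 1753, 653 and 2153 to 336, 274 and 399 (−2.18).

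Tuft cells, chemosensory cells that signal to immune cells, were represented by 29 tested identity genes. Of these, 28 had a positive change and 6 were called higher, with a median of 1.09. Dclk1, their usual marker, was at 401, 424 and 771 in GF and 945, 2151 and 1521 in COLONIZED libraries (1.53, adjusted p 0.000555). Cd24a (1.10), the IL-25 receptor chain Il17rb (1.86) and Ffar3, a receptor for short-chain fatty acids (1.75), rose. The count was 2 without GF-Ern2-/- replicate 1 or COLONIZED-Ern2-/- replicate 2 or 3, 14 without GF-Ern2-/- replicate 3 and 10 without COLONIZED-Ern2-/- replicate 1. The tuft signature of 477 tested genes had 31 higher and 24 lower, with a median of 0.06. The number higher was 18, 14 and 13 without GF-Ern2-/- replicate 1 and COLONIZED-Ern2-/- replicates 2 and 3, and the number lower was 39 without GF-Ern2-/- replicate 2 and 13 without COLONIZED-Ern2-/- replicate 2 or 3. Bmp2, a growth factor of the upper crypt, went from 1031, 1585 and 889 to 238, 138 and 179 (−2.66), and Prr15 fell too (−2.12).

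**Figure D4:**
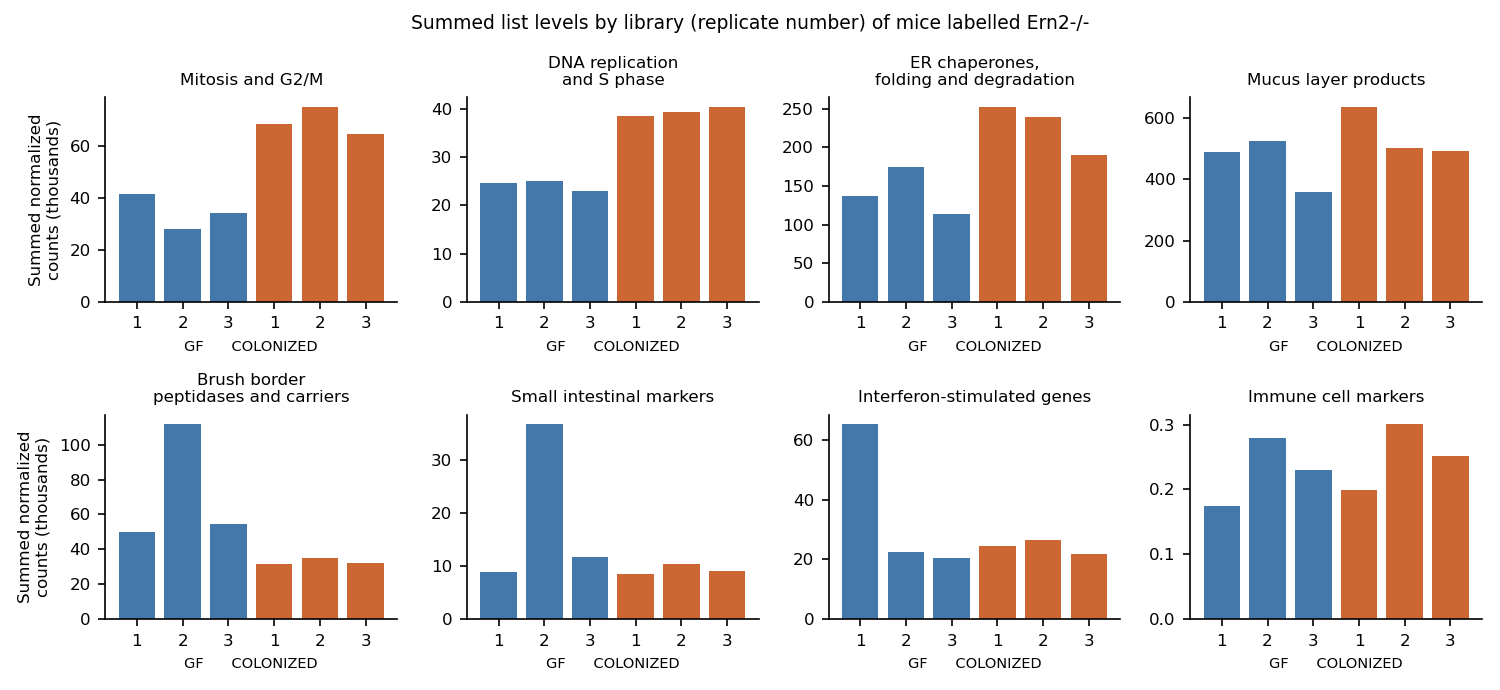
Summed normalized counts, divided by 1000, of 8 gene lists in each library, with GF-Ern2-/- replicates in blue and COLONIZED-Ern2-/- replicates in orange. The mitosis and replication sums of all COLONIZED libraries exceed those of all GF libraries, GF replicate 2 is the highest for brush border and small intestinal genes, and GF replicate 1 for interferon-stimulated genes.

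Absorptive genes fell more often than they rose. The enterocyte signature comes from work cited for the small intestine, and some members, such as Apoa1, are also among the small intestinal markers. Of 458 tested genes of the enterocyte signature 346 were not called and 8 were called higher, and the remaining genes were called lower. The median was −0.52, and −0.24 without GF-Ern2-/- replicate 2, where 98 were called lower and 24 higher. The number lower was 68, 57 and 67 without COLONIZED-Ern2-/- replicates 1, 2 and 3, and the number higher was 5, 3 and 3 there and 4 without GF-Ern2-/- replicate 1. Brush border peptidases and carriers were called lower in 14 of 23 and higher in none. Their median of −1.86 was −0.99 without GF-Ern2-/- replicate 2, with 11 called lower. Mme (neprilysin), a peptidase, was at 63.1, 209 and 116 in GF and 11.9, 2.01 and 2.24 in COLONIZED libraries (−4.51). Dpep1, a dipeptidase, was even within groups, at 7065, 8303 and 7516 against 3247, 4119 and 3536 (−1.07, SE 0.18, adjusted p 1.60e-07). Anpep, the aminopeptidase N, ran from 197 to 9014 among GF libraries and from 43.2 to 113 among COLONIZED libraries, and its adjusted p of 0.00114 became 0.0286 when COLONIZED-Ern2-/- replicate 2 was left out. Because the sums of absorptive and small intestinal genes were highest in GF-Ern2-/- replicate 2, the medians of these lists move with that library. Not every gene followed the sums, as Slc15a1 was lowest there among the GF libraries. The part of that library in these falls, beyond the values without it, was not tested.

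Ion transport genes of the colon were called lower in 11 of 41 tested and higher in 1, with a median of −0.83. Without GF-Ern2-/- replicate 2 the number lower was 14 and the median −0.52, and the number higher was 3 without GF-Ern2-/- replicate 3. Slc9a3 (NHE3), the main sodium-proton exchanger, was at 2649, 1038 and 2498 in GF and 299, 386 and 264 in COLONIZED libraries (−2.70, SE 0.35, adjusted p 5.29e-12). The sodium channel subunits Scnn1g (−4.11) and Scnn1a (−1.25), the magnesium channel Trpm6 (−2.31) and the chloride-bicarbonate exchanger Slc26a3 (−1.89) fell. The potassium channel Kcnk6 was the member that rose with all 6 libraries, from 372, 246 and 239 to 1330, 1086 and 758 (1.89). Of 28 tested genes of the colonic surface, 10 were lower and none higher, with a median of −0.93 that was −0.33 without GF-Ern2-/- replicate 2, where 11 were lower and 2 higher. The membrane-bound carbonic anhydrase Car4 was at 5621, 5286 and 6222 against 906, 1549 and 1399 (−2.15, SE 0.24, adjusted p 1.79e-16), and Myo1a, a motor of the brush border, fell by 1.10.

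Xenobiotic genes, which handle foreign compounds, were lower in 12 and higher in 3 of 59 tested, with a median of −0.32. Their median without GF-Ern2-/- replicate 2 was 0.09, with 12 lower and 10 higher, so that the sign of the median rests on that library. The number higher was 1 without COLONIZED-Ern2-/- replicate 3. The cytochromes Cyp2d34 (2968, 1985 and 2718 against 477, 294 and 324; −2.81), Cyp2d10 (−2.09) and Cyp2d9 (−2.96) are near-identical copies whose reads may be shared. Nr1i3 (CAR), a receptor that senses foreign compounds, was at 129, 75.9 and 116 in GF and 2.39, 10.0 and 10.1 in COLONIZED libraries (−3.89, SE 0.52, adjusted p 4.61e-11). Gsta3, a glutathione transferase, rose by 1.52.

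Of 28 tested antimicrobial and acute phase genes, 3 were called higher and 3 lower. The number higher was 0 without COLONIZED-Ern2-/- replicate 1 and 1 without COLONIZED-Ern2-/- replicate 2 or GF-Ern2-/- replicate 3. Reg3b, a lectin that kills bacteria and has close relatives, was at 165, 2699 and 320 in GF and 36343, 20535 and 7061 in COLONIZED libraries. The groups were apart by more than the GF spread, but the change of 4.33 (SE 1.25) had an adjusted p of 0.00805 and was called in 1 of the 6 fits that left out a library. Reg3g, at 14.1, 827 and 162 against 9974, 5319 and 2330, was not called (4.13, SE 1.36, adjusted p 0.0246), but was in the fit of all 18 libraries. It was also called in 2 of the 6 fits that left out a library, with changes of 3.52 to 6.08 over these fits. Duox2, an oxidase that makes hydrogen peroxide (1.59, adjusted p 0.00597), and its maturation factor Duoxa2 (1.68, adjusted p 0.00780) rose, and each was called in 2 of those fits. Their changes were 0.96 and 1.01 without COLONIZED-Ern2-/- replicate 1. Lypd8, which keeps flagellated bacteria from the epithelium, fell together with Saa1 and Saa2, from 164188, 188500 and 91796 to 73452, 65886 and 59800 (−1.16, adjusted p 0.000846).

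Among 29 tested microbe sensors and adaptors, 1 was higher and 2 were lower, beside 3.60% and 3.57% over all genes. Neither lower call was made without GF-Ern2-/- replicate 1 or without COLONIZED-Ern2-/- replicate 2 or 3. Nod2, which senses bacterial cell wall fragments, was at 27.4, 40.8 and 38.4 in GF and 152, 135 and 120 in COLONIZED libraries (1.95, SE 0.32, adjusted p 1.48e-07). Il18, a cytokine of the inflammasome, and Tnfaip3 (A20), a brake on NF-κB, were these 2 members (−0.83 and −1.04). Sigirr, which restrains IL-1 receptor signals, was not called (−0.69, adjusted p 0.0186), but was in the fit of all 18 libraries. Of 26 tested cytokines, chemokines and IgA transport genes, 2 were higher (Tgfb1 and the chemokine Ccl9, at 1.40) and 6 lower. Only 1 was higher without any library other than GF-Ern2-/- replicate 2 or COLONIZED-Ern2-/- replicate 3. The number lower was 1 without COLONIZED-Ern2-/- replicate 2 or 3 and 3 without any of GF-Ern2-/- replicates 1 and 2 or COLONIZED-Ern2-/- replicate 1. Besides Il18, the IL-22 receptor chain Il22ra1 went from 1324, 1417 and 1276 to 809, 793 and 716 (−0.79, adjusted p 5.10e-05). The chemokine Ccl20 was at 12.4, 99.8 and 24.4 in GF and 4.78, 3.01 and 6.72 in COLONIZED libraries, and the adjusted p of 0.00254 became 0.101 when GF-Ern2-/- replicate 2 was left out.

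Interferon-stimulated genes had a median of −0.76 in 38 tested members, 34 of them with a negative change, and DESeq2 called none of them with all 6 libraries and no covariate. This list was led by GF-Ern2-/- replicate 1, as for the antiviral gene Trim30a, which was at 473, 26.1 and 44.2 in GF and 25.5, 19.1 and 13.4 in COLONIZED libraries (−3.23, adjusted p 0.0558). The lowest adjusted p values of the list were those of Oas1g (−1.54, adjusted p 0.0155), Ifi27 (−1.17, adjusted p 0.0217) and Ifit3 (−2.28, adjusted p 0.0224). Without GF-Ern2-/- replicate 1 these changes were −0.67, −0.66 and −0.59, and that of Trim30a was −0.85. Without GF-Ern2-/- replicate 1 the test called 2 members higher and none lower. Lower calls numbered 5 without GF-Ern2-/- replicate 2 and 3 without GF-Ern2-/- replicate 3. With the replicate block 3 were lower, among them Oas1g and Ifi27, and Trim30a was called in the fit of all 18 libraries and with the Y-linked covariate. None was called by edgeR.

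Of 17 tested clock genes, 4 were called lower and none higher, with a median of −0.62. These were 5 lower and 1 higher without GF-Ern2-/- replicate 2. Nr1d1 (REV-ERBα), a repressor within the clock, was at 1053, 591 and 754 in GF and 119, 143 and 224 in COLONIZED libraries (−2.31, SE 0.32, adjusted p 1.55e-10). Its relative Nr1d2 fell by 1.68, and the transcription factors Tef and Dbp fell by 1.25 and 1.62. Neither Tef nor Dbp was called in the DESeq2 fit of all 18 libraries (adjusted p 0.104 and 0.116). The same held for Ern2-/- mice in the fit of 12 libraries (adjusted p 0.135 and 0.170). Time of day at tissue collection is not given in the labels, and its part in these values was not tested. None of 83 tested cytosolic ribosomal protein genes was called (median −0.25). Subunits of oxidative phosphorylation had a median of −0.50, with 58 of 78 not overlapping between the groups, and 3 were called lower, beside 3.57% over all genes. That number was 21 in the fit of all 18 libraries, 7 without GF-Ern2-/- replicate 3, 0 without COLONIZED-Ern2-/- replicate 1 or 2, and 1 without GF-Ern2-/- replicate 1 or COLONIZED-Ern2-/- replicate 3.

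The response of mice labelled Ern2-/- was set beside that of WT mice in a fit of 12 libraries, in which COLONIZED-WT and GF-WT added 3 libraries each. In WT mice 1894 of 14133 tested genes were called (13.4%), and the same fit called 1727 genes in Ern2-/- mice. The GF-WT group held no library with Y-linked transcripts, so that sex and colonization are partly mixed in WT mice. All 24 genes named above as the largest changes in Ern2-/- had the same sign in WT, and 19 of them were called there. The test of the difference, an interaction term, called none of these 24 genes, with a lowest adjusted p of 0.844. For Chac1 the change was 4.61 in Ern2-/- and 2.09 in WT libraries. The difference of 2.52 (SE 0.91) was not called after adjustment over all genes (adjusted p 0.844). Trib3, at 2.46 in the 6 Ern2-/- libraries and −1.07 in WT, had a difference of 3.54 (SE 1.14) with the same adjusted p. Its WT counts were near the floor, at 2.82, 2.58 and 19.7 in GF and 5.30, 1.81 and 4.91 in COLONIZED mice. The negative WT change thus depends on GF-WT replicate 3. Chac1 was chosen for its rise in Ern2-/- libraries, which favours such a difference. The study had also named Chac1 and Trib3 among the genes most raised in COLONIZED-Ern2-/- over COLONIZED-WT crypts, which favours it for both. An unadjusted interaction p under 0.05 in DESeq2 was found for 1030 of 17884 genes, and for 896 genes with the Y-linked covariate. A share of 0.05 would fall under that limit if no gene differed, so these counts are no measure of differing genes. Tph1 and Chgb were not called in WT (0.40 and 0.66), and their differences of 2.85 and 2.16 were not called either. In WT mice Tph1 was at 21.6, 35.3 and 295 in GF and 163, 109 and 194 in COLONIZED libraries. Chgb was at 444, 420 and 1795 against 1354, 1139 and 1715. For both genes GF-WT replicate 3 lay above every COLONIZED-WT library and the other GF-WT libraries lay below all of them. The small WT changes therefore depend on that library.

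**Figure D5:**
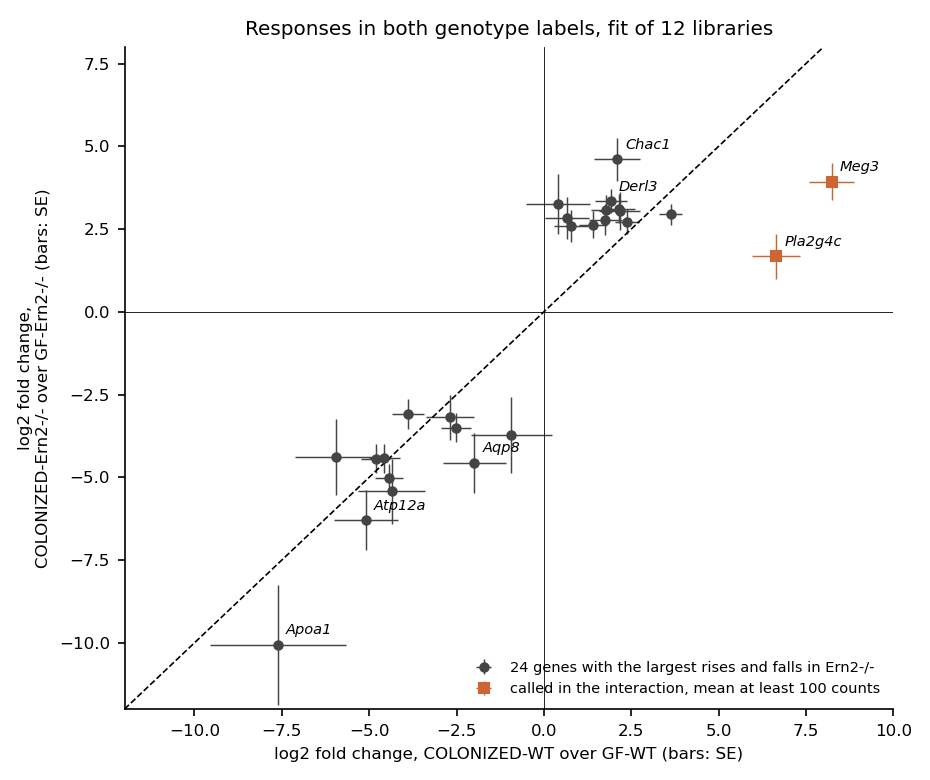
Log2 fold change with colonization in libraries labelled Ern2-/- against that in WT libraries. Both are from the fit of 12 libraries, with bars of 1 SE. Grey circles are the 24 genes named above as the largest changes in Ern2-/-, and orange squares are 2 genes called in the interaction. The dashed line marks equal responses. The 24 genes fall in the quadrants of shared sign, and Meg3 and Pla2g4c lie below the line, with WT changes of 8.23 and 6.65.

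Over all 17884 genes tested, 5 were called in the interaction (0.0280%), each with a lower log2 response in Ern2-/- than in WT libraries. Values of the WT libraries were scaled in the fit of 12 libraries and those of the Ern2-/- libraries in the fit of 6. Pla2g4c, a phospholipase A2, was at 20.7, 24.1 and 32.6 in GF-WT and 4295, 1357 and 2093 in COLONIZED-WT. In the libraries labelled Ern2-/- its counts were 28.2, 22.7 and 96.6 in GF and 99.6, 269 and 98.6 in COLONIZED mice, where it was not called (1.67, adjusted p 0.0410). Pla2g4c was called in 1 of the 6 fits that left out a library, with changes of 1.02 to 2.61 over these fits. Meg3, a maternally expressed noncoding RNA, rose in both, in Ern2-/- libraries from 5.81, 1.13 and 6.98 to 98.8, 66.3 and 49.3 (3.93, adjusted p 2.59e-08), and by 8.23 in WT. Other low adjusted p values of the interaction, at a mean of at least 100, were those of Aldh1b1 (a difference of −0.80, adjusted p 0.207), Tmem245 (1.14, adjusted p 0.226) and Retnlb, none of them called. The goblet products Retnlb and Spink4, with changes of 1.31 and 0.78 in Ern2-/- libraries and 4.66 and 2.62 in WT, had differences of −3.35 (adjusted p 0.311) and −1.84 (adjusted p 0.844) and were not called.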

How the data were processed

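Per the labels and the study's methods, the authors prepared stranded mRNA libraries and aligned single-end reads with STAR (build mm10 in the submitters' processing notes), and they deposited raw counts per gene symbol, neither normalized nor pooled. The strand setting of the counting is not given in the sources used here. Columns of no sample came to 0. Of 24047 symbols, 27 read as dates and 2 were duplicated. Totals of the 6 libraries, 13783712 to 20384814 counts, limit what can be seen of rare transcripts.

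The comparison was fitted on its 6 libraries with DESeq2 1.42.0 in R 4.3.3 (default size factors, independent filtering, no shrinkage, adjusted p under 0.01). The interaction used 12 libraries. Alternatives were edgeR 4.0.16, TMM size factors, a filter of 10 counts in 3 libraries, all 18 libraries, a replicate block, the Y-linked pattern as a covariate, a 2-fold limit and leaving out each library. The fits were tested on simulated counts, of which no result is given here. The labels number the replicates but do not describe them further, so p-values measure the spread between these libraries.

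The libraries, gene lists and tests were chosen with earlier results of these data known. Named genes were the 12 largest changes in each direction among calls with a mean of at least 100 normalized counts, separated groups and calls in all 6 fits that left out a library; the 4 members of each described list with the lowest adjusted p, and defining members; a fixed set of ER and goblet genes; and the 6 lowest adjusted p values of the interaction at that mean. Results of 2 genes that these rules named are not reported here. Lists of secretory steps, ribosomal proteins and oxidative phosphorylation, and those in the closing section, are given by counts. Genes with promoter matches, Mki67, Top2a, Cdk1, Cdkn1a, Pnliprp2, Itln1 and the markers named were chosen after their values were seen. Of 44 lists, 5 were signatures from the study, 2 followed symbol patterns and the others were written for this work; Clca1 was entered under its listed symbol Clca3. Promoter windows and gene positions were those of RefSeq on GRCm38.p6, matched by symbol or a unique synonym.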

Additional observations from a re-analysis of the deposited data

Results flagged for a closer look

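The response to colonization differed between the genotype labels by the interaction term of DESeq2 for 5 genes, of which 4 are given here as the log2 response in Ern2-/- minus that in WT libraries. The differences were −4.97 for Pla2g4c (SE 0.96, adjusted p 0.00228), −4.30 for Meg3 (SE 0.85, adjusted p 0.00283), −3.74 for Pnliprp2 (SE 0.78, adjusted p 0.00661) and −3.45 for Itln1 (SE 0.73, adjusted p 0.00752). Pnliprp2, a lipase related to those of the pancreas, was at 448, 102 and 298 in COLONIZED-WT and between 8.96 and 46.3 in the other 9 libraries. Itln1, a lectin of goblet and Paneth cells with close relatives, was at 360, 181 and 356 in COLONIZED-WT and at 12.0 to 51.0 elsewhere. WT values come from the scaling of 12 libraries and Ern2-/- values from that of 6. For each of the 4 genes every COLONIZED-WT library exceeded every other library. The calls differed between alternatives: with a replicate block the adjusted p was 0.635 for Meg3, 0.0121 for Pla2g4c and 0.0131 for Itln1, and without COLONIZED-Ern2-/- replicate 3 it ran from 0.0202 for Meg3 to 0.0514 for Pnliprp2. None was called by edgeR, which gave each an adjusted p of 0.659, or with the Y-linked pattern as a covariate; at an unadjusted p under 0.05 edgeR had 947 genes and DESeq2 1030. The Y-linked pattern moves with colonization in WT mice, and its part in these differences was not tested apart from that covariate.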

How the results depend on the processing

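The number of genes called, 1000, was 27 by edgeR and 654 with a limit of 2-fold. It ran from 449 to 1340 when 1 library was left out, with 627, 449 and 553 without COLONIZED-Ern2-/- replicates 1, 2 and 3, and from 950 to 1166 under the other alternatives. Of 2409 tested list members, 385 were called, 19 by edgeR and from 210 to 469 when 1 library was left out (210 and 236 without COLONIZED-Ern2-/- replicates 2 and 3). The 5 interaction calls became 0 by edgeR, 0 with the Y-linked covariate, where 896 genes had an unadjusted p under 0.05, and from 0 to 5 when 1 library was left out. Leaving out COLONIZED-Ern2-/- replicate 3 gave 0, replicate 1 of COLONIZED-WT or COLONIZED-Ern2-/- gave 1, and replicate 2 of GF-WT or GF-Ern2-/- or replicate 3 of COLONIZED-WT gave 2. The count was 3 for replicate 3 of either GF group, replicate 1 of GF-Ern2-/- or replicate 2 of COLONIZED-Ern2-/-, and GF-WT replicate 1 gave 4, of which 3 were of the opposite sign. With a replicate block the counts were 959, 419 and 6; the labels do not say that numbers mark shared mice, and deviations of same-numbered libraries correlated at 0.52, 0.097 and 0.28 (replicates 1 to 3, over 500 genes). Among named genes, Ern2 (−0.19) turned to 0.23 with the replicate block. Uncalled values changed sign when 1 library was left out for Ern2 (−0.68 to 0.24), Ern1 (−0.40 to 0.031), Atf6 (−0.0014 to 0.20), Atoh1 (−0.13 to 0.29), Gfi1 (−0.086 to 0.22), Lgr5 (−0.038 to 0.51), Ptprc (−0.074 to 0.55), Epcam (−0.25 to 0.035) and Itln1 (−0.31 to 0.91). Of 121 called genes named in the text, 86 were called in each of 6 fits that left out a library. The fit of all 18 libraries lost 20 of the 121, among them Tef, Dbp, Muc2, Agr2 and Dnajc3, and gained Reg3g, Sigirr and Trim30a, and edgeR lost 102 of the 120 that it tested. The Y-linked covariate lost Muc2, Tff3, Cela1 and Cdt1 and gained Ang4 and Trim30a. The replicate block lost Eif2ak1, Tff3, Insm1, Nkd1, Ccl20, Anpep and Cdt1 and gained Ang4, Oas1g and Ifi27. For Ern2-/- mice the fit of 12 libraries called Xbp1, Klf4, Reg3g, Sigirr, Oas1g and Tmem245 in addition and did not call St3gal4, Il18, Slc26a3, Tef, Dbp or Prss23. Leaving out 1 library moved the fold by over 1.5 times for Chac1, Tph1, 2210407C18Rik, Chgb, Ntrk2, Lpcat4, Apoa1, Atp12a, Slc6a19, Cyp3a13, Scnn1g and Mme, and also for Tff3 (log2 −1.82 to −0.86), Trib3 (1.82 to 3.33), Duox2 (0.96 to 2.06), Duoxa2 (1.01 to 2.03), Reg3b (3.70 to 6.47), Reg3g (3.52 to 6.08), Pla2g4c (1.02 to 2.61), Ccl20 (−3.69 to −1.92), Slc26a3 (−2.12 to −1.25) and Anpep (−5.89 to −3.16). Besides those given with such values, Sst, Gcg, Insm1, Ddc, Dclk1, Ffar3, Ephb2, Nkd1, Lypd8, Il18, Tnfaip3, Ccl9, Cela1, Scnn1a, Galnt3, Dbp, Hsp90b1, Pecam1, Pdgfrb, Dnajc3, Pdia6, Syvn1, Cdt1 and Mcm7 were called in 1 to 4 of them. In the fit of all 18 libraries the numbers called higher were 7 for ER chaperones, 21 for the goblet signature, 8 for the stem and 12 for the enteroendocrine signature, and 0 for mucus products and mucin glycosylation. Those called lower were 21 for oxidative phosphorylation, 7 for xenobiotic and 2 for clock genes. With the replicate block, 15 tuft identity genes were higher, 5 antimicrobial genes were higher, 2 COPI and COPII genes were higher and 3 cytokine and IgA transport genes were lower. The same block gave 4 mucus products higher and 2 lower, and 5 mucin glycosylation genes higher and 5 lower. It also gave 2 ion transport genes higher and 1 oxidative phosphorylation gene lower. No called named gene changed sign in any alternative run. The causes of these changes were not tested.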

Other observations

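The counts of further lists stand beside shares of 3.60% called higher and 3.57% called lower over all genes tested. Cholesterol and fatty acid synthesis gave 3 higher and 0 lower of 36 tested (median −0.16), and fatty acid oxidation with PPAR targets 0 higher and 4 lower of 46 (median −0.43, and −0.06 without GF-Ern2-/- replicate 2). Notch pathway genes gave 3 higher of 30 and 0 lower (median 0.03), and Hox genes 3 higher of 29 and 0 lower (median 0.10). Both medians turned negative without GF-Ern2-/- replicate 2, to −0.11 and −0.06, with 2 Notch genes higher and 3 Hox genes higher and 1 lower. Immediate early genes gave 0 higher and 2 lower of 27 (median −0.33), and 1 higher and 4 lower without that library. MHC class I genes gave 0 calls in 21 (median −0.35), and MHC class II genes 1 lower in 9 with a positive median of 1.27. Among markers of other tissues, 2 of 6 tested acinar genes were lower, and 0 without GF-Ern2-/- replicate 2. Cela1, lower with all 6 libraries, went from 7779, 7090 and 4813 to 4024, 1565 and 2741 (DESeq2 adjusted p 0.00482). Small intestinal markers were lower in 2 of 10 tested, with a median of −2.39. Without GF-Ern2-/- replicate 2, their highest library, 1 was lower and the median was −1.55. Glial markers gave 0 calls in 4.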
